A study of Homo sapiens with 12 samples.

Results

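The genes described are those whose symbol is ZNF followed by digits, with at most 1 closing letter: 59 of the 3699 genes in the authors' table, all marked there as mRNA. Their levels were measured by RNA sequencing in the human colorectal adenocarcinoma line SW480. A pair of read-through symbols, ZNF660-ZNF197 and ERV3-1-ZNF117, carry a hyphen and were left out (2 in all). The 12 libraries form 4 groups of 3: untreated, PUE, GLY, and both together (GLY_PUE), with the abbreviations kept as the labels give them. All cells carry the label of this 1 line, although some sample descriptions give the name of the line with another number. They were seeded in IMDM with 10% FBS for 12 h. They were then kept for 12 h in fresh medium, which carried the treatments in the treated groups. The GLY libraries are labelled 12, 13 and 14 h, and every other treated library 12 h. BER and WOG, also named in the protocol, were not analysed here. Whether the libraries of a group are separate cultures is not stated, so p-values reflect only library-to-library spread, and that spread may be technical.

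Most proteins named ZNF carry C2H2 zinc fingers, short loops held by a zinc ion that in tandem arrays read a DNA sequence. In the largest subfamily the fingers follow a KRAB box, which recruits the corepressor TRIM28 and with it histone methylation, and many of these genes lie in tandem clusters on chromosome 19, where they spread by duplication and silence transposable elements. The symbol is a naming convention, however, and some ZNF proteins act outside transcription: ZNF598 is a ubiquitin ligase that senses collided ribosomes, and ZNF593 belongs to a family that helps export the large ribosomal subunit.

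Judged by patterns found in their translated coding sequences in GENCODE 29, 27 of the 59 genes matched a KRAB box. A further 20 had at least 3 C2H2 fingers and no KRAB pattern, and 12 had 0 to 2 fingers and no KRAB pattern. Each gene was judged from 1 transcript, with 1 pattern per domain. Domains that depart from the pattern or lie in another transcript would be missed. Finger numbers ran from 0 to 27, with ZNF521 at 27. A SCAN pattern, a dimerisation domain, was found in 1, ZNF165. Chromosome 19 held 19 of the 59 genes, and 15 of those 19 had the KRAB pattern. At least 10% of the 50-base windows of 8 transcripts also occurred in another gene, among them ZNF365, ZNF492, ZNF354A (shared with ZNF354B), ZNF611 and ZNF836. Reads of those 8, and of ZNF117, which overlaps a read-through gene, may have been split or shared in the authors' counting, and their values are uncertain to that extent.

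The promoter stretches of 6 members are shown as examples of genes that fell and genes that rose. ZNF367 and ZNF608 are among the genes that fell most with GLY, ZNF107 is a KRAB gene that fell in GLY against untreated, and ZNF593, ZNF598 and ZNF583 were higher. Each line gives the 150 bases just before the annotated start, 5′ to 3′ on the gene's own strand, from RefSeq on GRCh38.p14. Capitals mark CCAAT (the NF-Y box), CCGGAAG (an ETS core), GGGCGG (the GC box), TTTCCCGC (an E2F site) and TGACGTCA (the cAMP response element), read on either strand.
ZNF367, chr9:96418371-96418520, minus strand: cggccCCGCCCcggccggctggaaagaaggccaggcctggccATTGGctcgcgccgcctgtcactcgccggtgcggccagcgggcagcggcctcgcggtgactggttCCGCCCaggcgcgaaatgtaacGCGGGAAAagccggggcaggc
ZNF608, chr5:124748825-124748974, minus strand: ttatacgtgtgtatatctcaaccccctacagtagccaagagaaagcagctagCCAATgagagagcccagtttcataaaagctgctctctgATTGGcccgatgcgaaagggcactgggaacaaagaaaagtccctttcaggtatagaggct
ZNF107, chr7:64665983-64666132, plus strand: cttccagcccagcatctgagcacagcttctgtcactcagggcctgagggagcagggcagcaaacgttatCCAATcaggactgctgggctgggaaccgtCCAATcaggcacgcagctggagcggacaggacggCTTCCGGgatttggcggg
ZNF593, chr1:26169758-26169907, plus strand: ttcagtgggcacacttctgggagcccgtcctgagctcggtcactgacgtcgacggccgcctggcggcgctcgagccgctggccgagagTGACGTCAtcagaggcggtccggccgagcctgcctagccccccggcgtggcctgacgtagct
ZNF598, chr16:2009822-2009971, minus strand: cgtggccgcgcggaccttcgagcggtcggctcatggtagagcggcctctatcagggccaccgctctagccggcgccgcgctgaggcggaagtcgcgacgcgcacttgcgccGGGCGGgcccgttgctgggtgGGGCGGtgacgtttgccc
ZNF583, chr19:56403864-56404013, plus strand: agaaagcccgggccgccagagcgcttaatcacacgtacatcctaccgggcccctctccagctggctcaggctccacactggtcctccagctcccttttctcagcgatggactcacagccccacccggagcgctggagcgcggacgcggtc

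ZNF107 carried 2 CCAAT boxes and an ETS core near the start, and ZNF608 carried 2 CCAAT boxes on opposite strands. ZNF367 held an E2F site, and ZNF593 was the 1 gene of the set with the cAMP response element. ZNF583 showed none of these letters in its stretch. Over the 250 bases before the start, searched on both strands with overlapping matches between motifs allowed, 47 of the 59 genes had a RefSeq window. CCAAT stood in 23 of those 47 (48.9%), against 33.0% of all 27305 windows of the same length, and in 17 of the 25 KRAB genes with a window. CCGGAAG stood in 13 (27.7%, against 8.82% of all windows) and GGGCGG in 28 (59.6%, against 42.3%). TTTCCCGC was found in ZNF367 and ZNF214 (4.26%, against 1.42%), TGACGTCA in ZNF593 (2.13%, against 1.77%), and TATAAA in 6 (12.8%, against 11.1%). A match is a run of letters and was not examined for binding.

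Library totals, recovered from the deposited values, lay between 19.7 and 21.4 M reads, so depth was nearly even. Levels are given as CPM, the reads of a gene per M reads of its library, and no reads at all still permits a level of 0.152 CPM (3 counts), counting error only. The listed genes held 13.8 to 15.4% of each library. In the authors' deposited table every one of the 3699 genes reached a log2 ratio of 1 or more in size, with a q-value no higher than 0.001, in some comparison, so the table is a list selected for change. The counts of ZNF genes describe how the listed genes moved, and ZNF genes outside the list were not analysed here. Of 14 colon epithelial markers the table held 4 (LGR5, ASCL2, VIL1 and CDX2), whose summed FPKM (the level per transcript length) was 69.9 to 91.5 in untreated, 67.1 to 96.1 in PUE, 10.1 to 18.8 in GLY and 10.6 to 12.3 in GLY_PUE libraries. It held 2 of 7 leukocyte markers, CD14 and CD68, with sums of 2.6 to 3.89, 3.01 to 3.38, 9.49 to 13.5 and 9.83 to 13.0. PDGFRB, 1 of 7 fibroblast markers, stayed at or below 0.66, and none of 6 endothelial markers was in the table. The part of these marker shifts in the ZNF results was not tested.

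Most listed ZNF genes were lower after GLY. Against untreated cells, 40 of the 58 tested genes fell and 10 rose with edgeR's quasi-likelihood test and Benjamini-Hochberg adjustment over the 3429 genes tested (adjusted p under 0.05). The background is 84.3% of all genes tested (64.6% lower and 19.7% higher), close to the 86.2% of the ZNF genes. Their median log2 fold change was −1.09, beside −1.15 for all genes tested. With PUE present in both arms, GLY_PUE against PUE, 23 fell and 11 rose, 58.6% of the ZNF genes where the background is 77.8% (57.3% lower and 20.6% higher), and the medians were −0.71 and −1.05. GLY_PUE against untreated, which shares its control libraries with the first comparison, gave 25 lower and 11 higher against a background of 77.3% (57.1% and 20.2%), with medians of −0.74 and −1.03. Falls outnumbered rises in each of the 3 comparisons. The lower counts with GLY_PUE depended on 1 library of another group, GLY replicate 1: all 12 libraries share an estimate of the spread. Without it, an alternative added after the data were seen, 41 ZNF genes fell and 12 rose in GLY_PUE against PUE (91.4%, beside 85.6% of all genes tested) and 40 fell and 12 rose in GLY_PUE against untreated (89.7%, beside 85.2%). In GLY against untreated 38 then fell and 12 rose, with a median of −0.82, beside −1.06 over all genes. The groups did not overlap in 49 of the 58 genes for GLY against untreated (83.3% of all genes) and in 54 for GLY_PUE against PUE (87.8%). The gene left untested, ZNF467, lay between 0 and 0.796 CPM. As a description of the same libraries, the authors' deposited table marks 41 of the 59 genes in GLY against untreated (7 higher, 34 lower), 69.5% beside 77.8% of all genes listed. It marks 30 in GLY_PUE against PUE (10 and 20; 50.8% beside 69.3%) and 28 in GLY_PUE against untreated (10 and 18; 47.5% beside 69.0%).

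These directions are relative to library totals. When libraries were scaled by TMM within the selected table, which shifts the median of all genes by 1.12 (GLY against untreated), 1.02 (GLY_PUE against PUE) and 1.01 (GLY_PUE against untreated) on the log2 scale, the splits became 13 higher and 3 lower, 12 higher and 2 lower, and 12 higher and 3 lower. The medians of the ZNF genes were then −0.02, 0.30 and 0.25. Shares over all genes under TMM are not given beside these splits, so the excess of rises need not be particular to ZNF genes. Rises named in the following paragraphs passed under both scalings unless stated, while most falls did not pass under TMM. In bulk RNA, less RNA per cell and fewer cells with the transcript cannot be told apart.

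Summed over the 59 genes, ZNF transcripts took 1379 ± 65.6 CPM without treatment, 1395 ± 57.0 with PUE, 945 ± 176 with GLY and 1073 ± 45.4 with both (SD, n = 3 each). The lowest untreated or PUE sum was 1323 CPM and the highest with GLY 1122 CPM, so the groups with and without GLY did not overlap. The level of the median ZNF gene moved from 12.2 CPM in untreated and in PUE to 6.03 in GLY and 8.20 in GLY_PUE. Summed FPKM, a level per transcript length, differed less, at 344 ± 5.76, 347 ± 3.75, 335 ± 15.6 and 331 ± 4.12. That sum gives weight to abundant genes: the mean FPKM of ZNF593 was 49.3 without treatment and 112 with GLY. With PUE it was 47.8, and with both 84.1. For the median ZNF gene, FPKM was lower with GLY, at 1.55 ± 0.60 beside 2.79 ± 0.33 without treatment. With both it was 1.87 ± 0.25, beside 2.86 ± 0.12 with PUE. ZNF593, ZNF598, ZNF703, ZNF66 and ZNF165 had the highest mean FPKM over the 12 libraries, and 3 of these 5 rose with GLY.

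**Figure D1:**
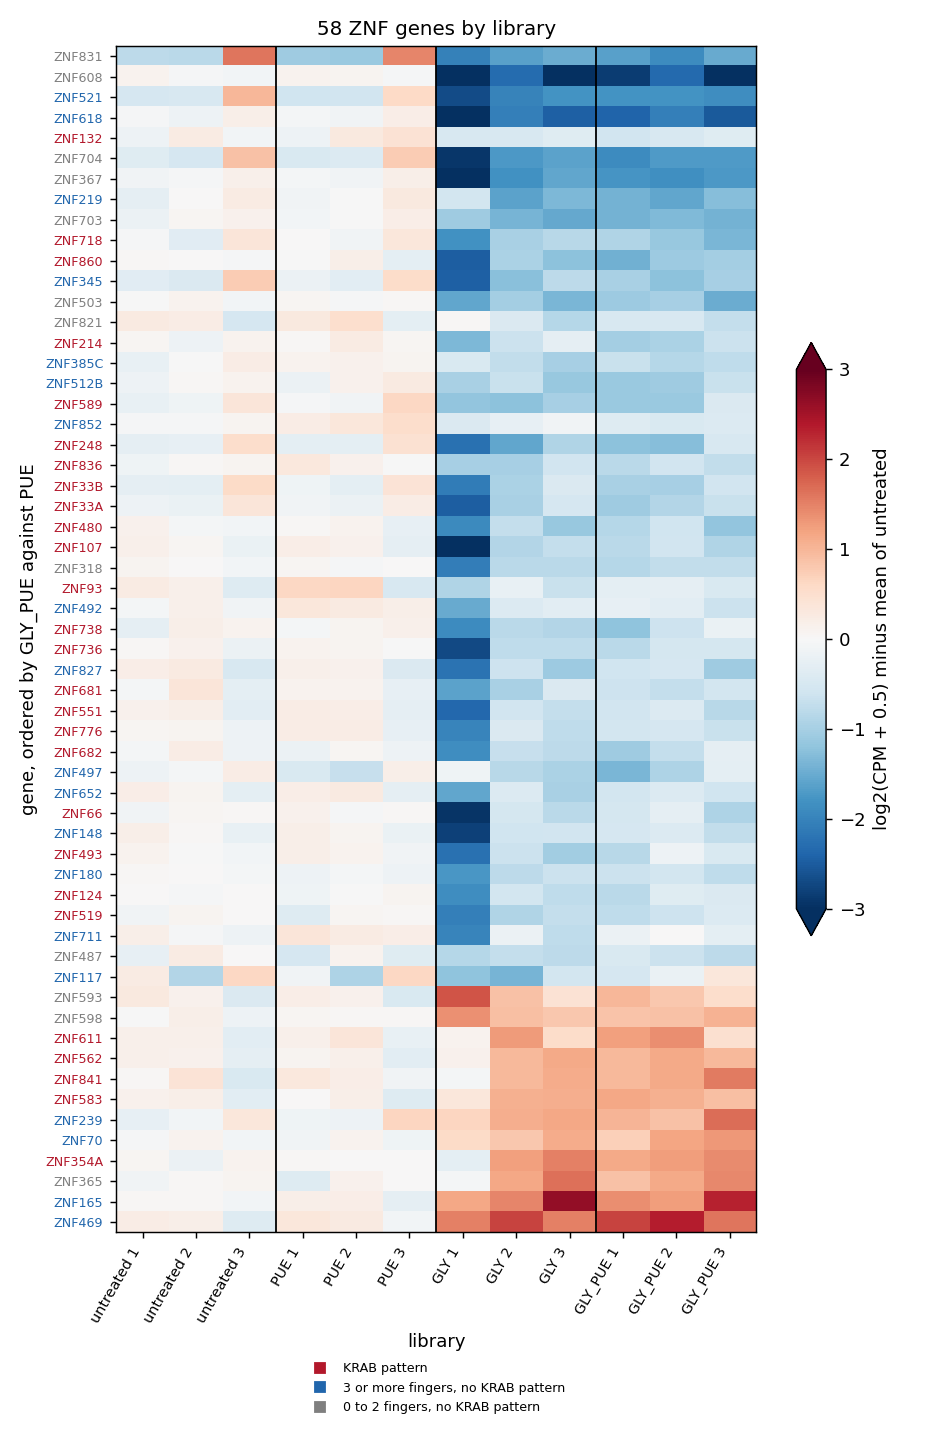
Level of the 58 tested ZNF genes in each of the 12 libraries, as log2(CPM + 0.5) minus the mean of the untreated libraries, on a colour scale that ends at −3 and 3. Rows are ordered by GLY_PUE against PUE, with gene names coloured by KRAB pattern and finger number. Columns of GLY and GLY_PUE are mostly blue, with 40 of 58 genes lower and 10 higher in GLY against untreated relative to library totals (3 lower and 13 higher under TMM), and GLY replicate 1 is the lowest of the 12 libraries for 36 of the 59 genes. Of all genes tested, 64.6% were lower and 19.7% higher in GLY against untreated relative to library totals. Shares under TMM are not given.

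GLY against untreated and GLY_PUE against PUE share no library, so each can be set beside the other. The list itself was selected for change in these libraries. The authors' thresholds mark 77.8% of its genes in the first comparison and 69.3% in the second. Agreement between the pair is therefore a description and not an independent test. All 58 genes had the same sign in both, beside 3377 of all 3429 genes (98.5%), relative to library totals. That scaling sets both medians near −1, and under TMM 36 of the 58 had the same sign and 22 the opposite (75.7% of all genes had the same sign). Of the 58, 9 rose in both, 21 fell in both, 20 passed in the first alone, 4 in the second alone and 4 in neither. Over all 3429 genes these counts were 617, 1834, 437, 216 and 323. Without GLY replicate 1, 12 rose in both, 36 fell in both, 2 passed in the first alone, 5 in the second alone and 3 in neither. In that fit 81.1% of all genes tested passed in the first comparison and 85.6% in the second. Across the 58 genes, which are not independent replicates, the log2 fold changes of the pair correlated with a Pearson's r of 0.951 (0.909 over all genes). The 20 that passed in GLY against untreated alone were not shown to differ between the pair: the interaction, which tests this difference, passed for 0 of 58 genes (edgeR adjusted p; 0 at an unadjusted p under 0.05, and 1 without GLY replicate 1).

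**Figure D2:**
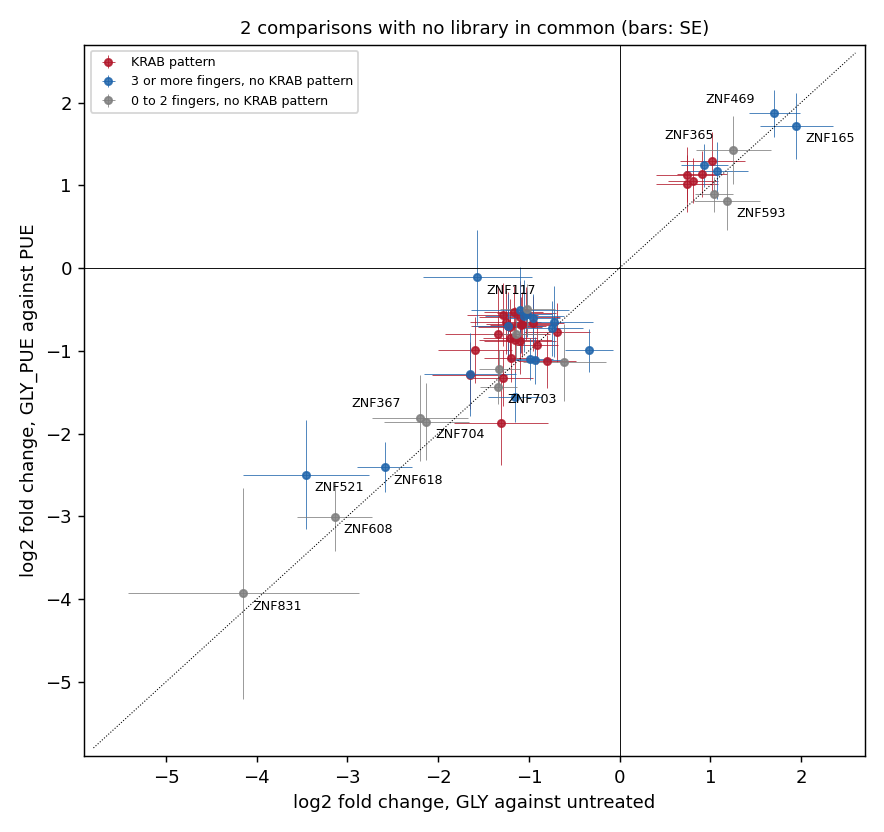
Log2 fold change of each of the 58 ZNF genes in GLY against untreated (x axis) and GLY_PUE against PUE (y axis), with standard errors as bars, coloured by KRAB pattern and finger number, and the line of equality dotted. All 58 points lie in the quadrants of equal sign, relative to library totals (36 of 58 under TMM), from ZNF831 at −4.15 and −3.93 to ZNF165 at 1.95 and 1.72.

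The largest falls among genes of moderate level were in genes without a KRAB pattern. ZNF608, a relative of the transcription regulator ZNF609, measured 33.0, 30.0 and 29.2 CPM in untreated and 32.9, 32.8 and 30.1 CPM in PUE libraries. In GLY libraries ZNF608 measured 1.98, 5.84 and 2.59 CPM, and in GLY_PUE libraries 3.84, 5.73 and 2.30 CPM. Every library with GLY lay below every library without it, with replicate 2 the highest in both GLY groups. The change was 8.83-fold lower in GLY against untreated (log2 fold change −3.14, SE 0.41, adjusted p = 1.03e-04) and 8.06-fold lower in GLY_PUE against PUE (log2 fold change −3.01, SE 0.41, adjusted p = 1.37e-04). ZNF618, a C2H2 protein reported to bind the chromatin protein UHRF2, measured 34.6, 31.9 and 40.4 CPM in untreated and 3.54, 8.15 and 6.05 CPM in GLY libraries, and 33.9, 33.0 and 40.7 CPM in PUE against 6.32, 8.20 and 5.73 CPM in GLY_PUE libraries. Its groups did not overlap, and its log2 fold changes were −2.59 (SE 0.30, adjusted p = 5.32e-05) and −2.41 (SE 0.30, adjusted p = 9.33e-05). ZNF608 and ZNF618 were lower under TMM as well, at −2.04 and −1.48 for GLY. Without GLY replicate 2 the GLY value of ZNF608 was −3.75.

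ZNF367, described first as an activator in erythroid cells, measured 59.2, 62.5 and 71.1 CPM in untreated and 61.3, 59.1 and 73.0 CPM in PUE libraries. With GLY it measured 2.55, 17.9 and 21.5 CPM, and with both 18.5, 17.4 and 19.03 CPM. GLY replicate 1 was by far the lowest, and the other 5 libraries with GLY lay close together, all below the libraries without GLY. The log2 fold changes of ZNF367 were −2.20 (SE 0.52, adjusted p = 0.00295) and −1.82 (SE 0.52, adjusted p = 0.00795), and under TMM it did not pass, at −1.16 and −0.79. ZNF704 measured 79.0, 72.0 and 189 CPM in untreated, 75.1, 77.1 and 174 in PUE, 13.2, 30.9 and 33.6 in GLY and 27.4, 31.4 and 31.2 in GLY_PUE libraries. Its replicates numbered 3 stood far above numbers 1 and 2 where GLY was absent, and all 6 libraries with GLY lay below all 6 without. ZNF704 fell by 2.13 and 1.86 on the log2 scale (adjusted p = 0.00195 and 0.00417). Without untreated replicate 3 the first value was −1.54, and under TMM the values were −0.99 and −0.79 and did not pass.

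ZNF521 and ZNF831 lay at low levels, and their values have wide errors. ZNF521, a cofactor that binds EBF1 and acts in blood and neural progenitors, measured 1.98, 2.04 and 6.51 CPM in untreated, 1.84, 1.87 and 4.88 in PUE, 0.0472, 0.375 and 0.516 in GLY and 0.515, 0.518 and 0.473 in GLY_PUE libraries. The 6 libraries with GLY all lay below the others, and 1 library, GLY replicate 1, was under the floor of 0.152 CPM. Its log2 fold changes were −3.46 (SE 0.69) and −2.50 (SE 0.66), with adjusted p of 0.00113 and 0.00534. They were −2.66 without untreated replicate 3 and −1.87 without PUE replicate 3. ZNF831 reached −4.15 and −3.93, from 0.675, 0.662 and 5.64 CPM in untreated to 0, 0.157 and 0.219 CPM in GLY libraries. It lies below the level set for named genes and was picked after its values were seen. Replicates numbered 3 held most of its signal where GLY was absent, and all 6 libraries with GLY were near or below the floor.

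ZNF703 and ZNF503, the 2 vertebrate members of the NET family of corepressors, fell by similar amounts. ZNF703, an amplified gene of luminal breast cancer, measured 134, 159 and 167 CPM in untreated, 144, 152 and 175 in PUE, 72.1, 57.7 and 52.5 in GLY and 56.8, 60.2 and 57.1 in GLY_PUE libraries. Here GLY replicate 1 was the highest of the 6 libraries with GLY, and the groups were far apart. ZNF703 fell 2.52-fold with GLY (log2 fold change −1.33, SE 0.21, adjusted p = 2.52e-04) and 2.71-fold in GLY_PUE against PUE (log2 fold change −1.44, SE 0.21, adjusted p = 1.88e-04). ZNF503 measured 53.7 ± 3.64 CPM in untreated and 21.4 ± 4.16 CPM in GLY libraries (SD, n = 3 each), with log2 fold changes of −1.33 and −1.22 (SE 0.23 in both; adjusted p = 4.56e-04 and 7.79e-04). Both falls are relative to library totals: under TMM the GLY values were −0.14 for ZNF703 and −0.20 for ZNF503, and neither passed.

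**Figure D3:**
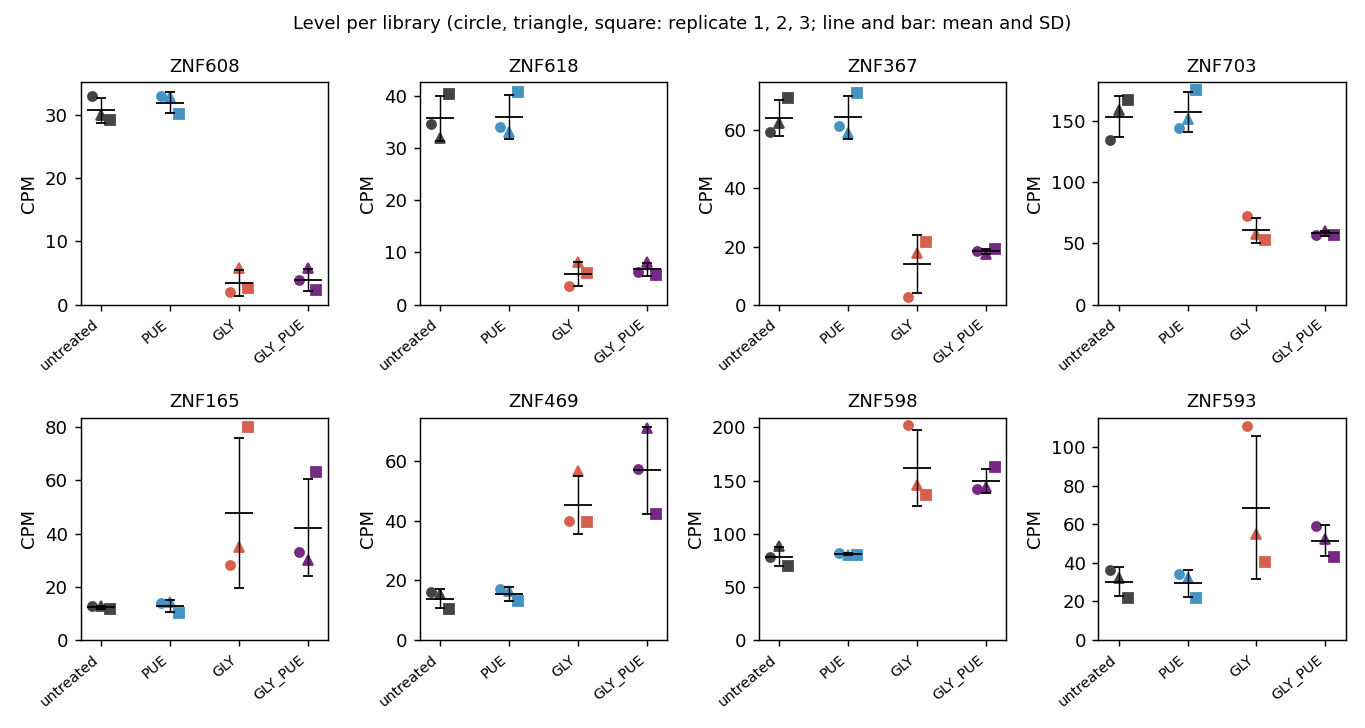
CPM of 8 ZNF genes in every library, with replicates 1, 2 and 3 as circle, triangle and square and the mean and SD of each group (n = 3) in black, on axes that start at 0. ZNF608, ZNF618, ZNF367 and ZNF703 (upper row) lie lower and ZNF165, ZNF469, ZNF598 and ZNF593 (lower row) higher with GLY relative to library totals, and GLY replicate 1 stands apart for ZNF367 and ZNF593. Under TMM the values of ZNF367 and ZNF703 for GLY were −1.16 and −0.14.

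The genes that rose in both comparisons with GLY were 9: ZNF165, ZNF469, ZNF365, ZNF598, ZNF239, ZNF70, ZNF583, ZNF354A and ZNF562. ZNF593 passed in GLY against untreated alone, and ZNF841 and ZNF611 in GLY_PUE against PUE alone. ZNF165, a SCAN protein of the testis that is re-expressed in tumours, measured 12.6, 12.7 and 11.7 CPM in untreated and 13.9, 14.4 and 10.1 CPM in PUE libraries. It measured 28.3, 34.9 and 80.0 CPM in GLY and 33.2, 30.1 and 63.2 CPM in GLY_PUE libraries. All libraries with GLY exceeded all others, and the replicate numbered 3 was the highest in both GLY groups. ZNF165 rose 3.86-fold (log2 fold change 1.95, SE 0.40, adjusted p = 0.00130) and 3.29-fold (log2 fold change 1.72, SE 0.40, adjusted p = 0.00268), and without GLY replicate 3 the first value was 1.35. ZNF469, a gene mutated in brittle cornea syndrome and linked to collagen, measured 15.96, 15.3 and 10.3 CPM in untreated and 39.7, 56.6 and 39.4 CPM in GLY libraries. With PUE and with both it measured 17.2, 16.5 and 12.9 CPM and 57.2, 71.2 and 42.0 CPM. Its groups were apart, with log2 fold changes of 1.71 (SE 0.28, adjusted p = 3.96e-04) and 1.87 (SE 0.28, adjusted p = 2.62e-04).

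A pair of members that act on ribosomes were higher with GLY. ZNF598, the sensor of collided ribosomes, measured 77.7, 88.1 and 69.8 CPM in untreated and 81.7, 80.2 and 79.9 CPM in PUE libraries. It measured 202, 146 and 137 CPM in GLY and 142, 144 and 163 CPM in GLY_PUE libraries, with no overlap and with GLY replicate 1 the highest. The rise of ZNF598 was 2.06-fold (log2 1.04, SE 0.21, adjusted p = 0.00121) and 1.85-fold (log2 0.89, SE 0.21, adjusted p = 0.00299). ZNF593, the most abundant ZNF gene by FPKM, measured 59.6, 52.7 and 35.6 FPKM in untreated, 55.6, 52.7 and 35.2 in PUE, 181, 89.3 and 65.9 in GLY and 96.2, 85.7 and 70.4 in GLY_PUE libraries. GLY replicate 1 was far above every other library, and the groups with and without GLY did not overlap. ZNF593 rose with GLY (log2 1.18, SE 0.36, adjusted p = 0.0104) and gave 0.81 in GLY_PUE against PUE (SE 0.36, adjusted p = 0.0532), which passed under TMM (1.82) and with the replicate number as a block (0.83). Both passed without GLY replicate 1, at 0.65 and 0.81, and the second also passed when the groups compared were fitted alone.

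ZNF365, a protein that helps keep fragile sites of the genome stable, measured 1.88, 2.15 and 2.21 CPM in untreated, 1.97, 5.26 and 7.65 in GLY, 1.48, 2.30 and 2.08 in PUE and 4.23, 5.14 and 6.53 in GLY_PUE libraries. GLY replicate 1 lay within the untreated range, and the other 5 libraries with GLY were above it. Its log2 fold changes were 1.25 (adjusted p = 0.0147) and 1.43 (adjusted p = 0.00862), and the first did not pass without GLY replicate 3 (0.80). The KRAB gene ZNF354A had the same layout: 15.96, 13.5 and 16.5 CPM in untreated, 12.5, 36.3 and 44.5 in GLY, 15.6, 15.4 and 15.3 in PUE and 34.3, 36.9 and 42.0 in GLY_PUE libraries, with GLY replicate 1 the lowest of all 12. It passed in both comparisons (1.02 and 1.29), but the GLY call was lost without GLY replicate 2 or 3, or untreated replicate 2 (0.89, 0.67 and 0.94). Further KRAB genes that rose in both were ZNF583 (0.91 and 1.14) and ZNF562 (0.81 and 1.06). Both lie on chromosome 19. The GLY call of ZNF562 was lost without GLY replicate 2 (0.71), GLY replicate 3 (0.61) or untreated replicate 3 (0.68). Of genes with fingers and no KRAB pattern, ZNF239 (1.07 and 1.18) and ZNF70 (0.93 and 1.24) rose. ZNF841 and ZNF611, both KRAB genes of chromosome 19, gave 0.74 and 0.74 with GLY (adjusted p = 0.0542 and 0.0585) and rose by 1.13 and 1.02 in GLY_PUE against PUE. Both GLY values passed when GLY replicate 1 was left out (1.03 and 0.98). The second call of ZNF611 was lost without PUE replicate 3 (0.87), GLY_PUE replicate 1 (0.94) or GLY_PUE replicate 2 (0.83).

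Of the 27 KRAB genes 21 fell and 3 rose in GLY against untreated, where 64.6% of all genes tested were lower and 19.7% higher. Their median was −1.10, beside −1.15 over all genes, with a range from −1.65 to 1.02. In GLY_PUE against PUE 8 fell and 5 rose (57.3% and 20.6% of all genes), with a median of −0.70, beside −1.05. Without GLY replicate 1, 19 KRAB genes fell and 5 rose in the first (median −0.79) and 21 fell and 5 rose in the second (median −0.70). In that fit 61.6% of all genes were lower and 19.6% higher in the first, and 64.6% and 21.0% in the second. The median over all genes was −1.06 in each. Genes with at least 3 fingers and no KRAB pattern (19 tested) had 11 lower and 4 higher in the first and 7 and 4 in the second (medians −0.99 and −0.65), and the 12 with 0 to 2 fingers had 8 lower and 3 higher, then 8 and 2 (medians −1.23 and −1.18). Without GLY replicate 1 the class with at least 3 fingers had 11 lower and 4 higher, then 12 and 4. The class with 0 to 2 fingers then had 8 lower and 3 higher in each comparison. Under TMM no KRAB gene was lower in either comparison, and 5 were higher in each. Shares over all genes under TMM are not given here, so these counts need not be particular to KRAB genes. The number of fingers showed little relation to the change. Across 58 genes the Spearman correlation was 0.016 for GLY and 0.057 for GLY_PUE against PUE, as a description.

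ZNF66, the most abundant KRAB gene by FPKM, measured 132, 148 and 145 CPM in untreated and 155, 137 and 146 CPM in PUE libraries. It measured 18.0, 98.9 and 81.4 CPM in GLY and 98.3, 117 and 75.0 CPM in GLY_PUE libraries. All libraries with GLY were below all others, with GLY replicate 1 far below the rest. ZNF66 passed in GLY against untreated (log2 fold change −1.10, SE 0.44, adjusted p = 0.0342) and gave −0.59 in GLY_PUE against PUE (SE 0.44, adjusted p = 0.211). ZNF107 showed the widest gap within GLY, at 1.62, 17.3 and 19.6 CPM, against 36.0, 33.8 and 28.2 in untreated, 37.4, 35.7 and 26.8 in PUE and 18.5, 21.8 and 17.1 in GLY_PUE libraries, with values of −1.34 (adjusted p = 0.0459) and −0.80 (adjusted p = 0.198). ZNF148, also called ZBP-89, a binder of GC-rich promoters without a KRAB pattern, had the same layout: 8.35, 40.5 and 40.9 CPM in GLY against 69.8, 63.3 and 52.6 in untreated libraries, and −1.05 (adjusted p = 0.0399) and −0.58 (adjusted p = 0.219). The GLY values of ZNF66, ZNF107 and ZNF148 were −0.66, −0.82 and −0.61 without GLY replicate 1. Each lost its call when untreated replicate 1, 2 or 3 was left out, and ZNF107 also without GLY replicate 2. In GLY_PUE against PUE all 3 fell, at the fold changes given above, when the groups compared were fitted alone or GLY replicate 1 was left out, and again without GLY replicate 1 and all libraries numbered 3. In GLY against untreated none of the 3 passed, nor did ZNF354A and ZNF562, when the groups compared were fitted alone. Under TMM all 3 had the opposite sign in GLY_PUE against PUE (0.43, 0.20 and 0.43).

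Among other KRAB genes ZNF248 fell by 1.60 and 0.99 (log2), ZNF860 by 1.65 and 1.30, and ZNF718 by 1.28 and 1.33. ZNF345 and ZNF219, which have fingers and no KRAB pattern, fell by 1.65 and 1.29, and by 1.16 and 1.56. Under TMM none of these 5 passed, and ZNF248 in GLY_PUE against PUE (0.035) and ZNF219 with GLY (0.077) had the opposite sign. Single libraries decided some calls in GLY_PUE against PUE. That of ZNF248 was lost without PUE replicate 3, GLY_PUE replicate 1 or GLY_PUE replicate 2 (−0.70, −0.86 and −0.84), and that of ZNF860 without GLY_PUE replicate 1 (−1.15). ZNF345 lost it without PUE replicate 3 (−0.94) or any GLY_PUE library (−1.34, −1.19 and −1.33), and its GLY call without untreated replicate 3 (−1.12). ZNF93, a KRAB repressor of LINE-1 elements in primates, passed in neither comparison. It measured 4.51, 4.21 and 2.76 CPM in untreated and 1.78, 3.12 and 2.17 CPM in GLY libraries, with values of −0.69 (SE 0.36, adjusted p = 0.0882) and −0.78 (SE 0.36, adjusted p = 0.0627), and 0.40 and 0.20 under TMM. The GLY_PUE against PUE value of ZNF93 passed without PUE replicate 3 (−1.09) and with the replicate number as a block (−0.71).

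Members that are neighbours, with at most 4 coding genes between them, did not all move together. Of all genes tested, 64.6% fell with GLY, with a median of −1.15, so neighbours that fell together did what most listed genes did. On chromosome 10, ZNF248, ZNF33A and ZNF33B all fell with GLY (−1.60, −1.15 and −1.10). In GLY_PUE against PUE 1 of the 3 fell, and all 3 fell without GLY replicate 1 (−0.99, −0.87 and −0.88). On the same chromosome ZNF239 rose with GLY (1.07) and ZNF487, with no coding gene between the pair, fell (−1.02). On chromosome 19, ZNF836 and ZNF480 fell (−0.91 and −1.20) and their neighbour ZNF841 had 0.74 with GLY and rose in GLY_PUE against PUE (1.13). On chromosome 7, ZNF736, ZNF107 and ZNF117 fell with GLY (−1.23, −1.34 and −1.57), and none of the 3 passed in GLY_PUE against PUE. Without GLY replicate 1, ZNF736 and ZNF107 fell there too (−0.70 and −0.80), and ZNF117 passed in neither comparison (−1.43 and −0.11). The remaining neighbours were pairs on chromosome 19. Both genes of ZNF738 with ZNF493 and of ZNF551 with ZNF776 fell with GLY, and 1 of ZNF93 with ZNF682. None of these pairs had a call in GLY_PUE against PUE in the fit of all 12 libraries. Without GLY replicate 1, ZNF738, ZNF493, ZNF551, ZNF776 and ZNF682 fell there (−0.72, −0.57, −0.68, −0.67 and −0.66). ZNF93 did not pass (−0.78). In that fit 64.6% of all genes tested were lower in GLY_PUE against PUE. Genes in this paragraph outside the naming rule were named for their position.

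GLY replicate 1 stood apart for ZNF genes. It was the lowest of the 12 libraries in 36 of the 59 genes (61.0%), beside 1267 of 3371 other tested genes (37.6%). It was the highest of the 3 GLY libraries in 8, among them ZNF593, ZNF598, ZNF703 and ZNF219. Against the mean of GLY replicates 2 and 3 (CPM plus 0.5), its median log2 ratio was −0.93 over the ZNF genes and −0.23 over the others. At least 2-fold lower values were found in 27 of the 59 ZNF genes and higher ones in 1, ZNF593, beside 807 and 100 of the 3371 others. By class the medians were −1.11 for KRAB genes, with 16 of 27 at least 2-fold lower, −0.64 for other genes with at least 3 fingers and −0.41 for those with 0 to 2. The matching library of GLY_PUE, replicate 1, had a median of −0.06 and no ZNF gene past 2-fold. Over the 3371 others its median was −0.11, with 65 at least 2-fold lower and 8 higher.

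The gap of GLY replicate 1 moved with transcript length, taken as count divided by FPKM. Over 3378 genes, length and the log2 ratio of this library had a Spearman correlation of −0.468, and over 58 ZNF genes −0.298 (descriptions across genes). Among other genes the median ratio was 0.25 among the shortest of 4 equal groups by length (up to 2.01 kb), −0.08, −0.42 and −0.84 in the next 3, the last from 4.53 kb, which held 24 of 58 ZNF genes, against 4 in the first. In the same groups the ZNF medians were 0.21, −0.48, −1.08 and −0.93, over 4, 10, 20 and 24 genes. Length and the log2 fold change of GLY against untreated had a Spearman correlation of −0.37 over the ZNF genes and −0.14 over all genes. For GLY_PUE against PUE these were −0.16 and 0.013. These too are descriptions, and the part of length in the GLY result was not tested. No fold change of GLY_PUE against PUE uses this library, but its spread enters the fit shared by all 12 libraries: 34 ZNF genes passed there with it, 53 without it, and 49 when the groups compared were fitted alone. Of all genes tested, 77.8% passed there with it and 85.6% without it. In GLY against untreated 50 passed with it and 50 without it (84.3% and 81.1% of all genes), and 37 when the groups compared were fitted alone. Shares over all genes for the groups fitted alone are not given here.

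Replicates numbered 3 also stood apart, for other genes. In untreated libraries replicate 3 was at least 2-fold above the mean of numbers 1 and 2 in 4 of the 59 ZNF genes. These were ZNF831, ZNF521, ZNF704 and ZNF345. Of the 3371 other tested genes, 211 were at least 2-fold higher there and 120 lower. In PUE libraries 4 ZNF genes were higher (ZNF831, ZNF521, ZNF704 and ZNF117) and 1 lower (ZNF93), beside 226 and 116 of the others. These counts need not be particular to ZNF genes. Without all libraries numbered 3, 39 ZNF genes passed in GLY against untreated and 30 in GLY_PUE against PUE. The named genes that lost a call were then ZNF66, ZNF107, ZNF148, ZNF219, ZNF354A, ZNF365, ZNF562 and ZNF583 in the first and ZNF345, ZNF354A, ZNF367 and ZNF841 in the second. Without GLY replicate 1 as well, an alternative added after the data were seen, the second count was 56. Shares over all genes are not given beside these counts, so their changes need not be particular to ZNF genes.

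**Figure D4:**
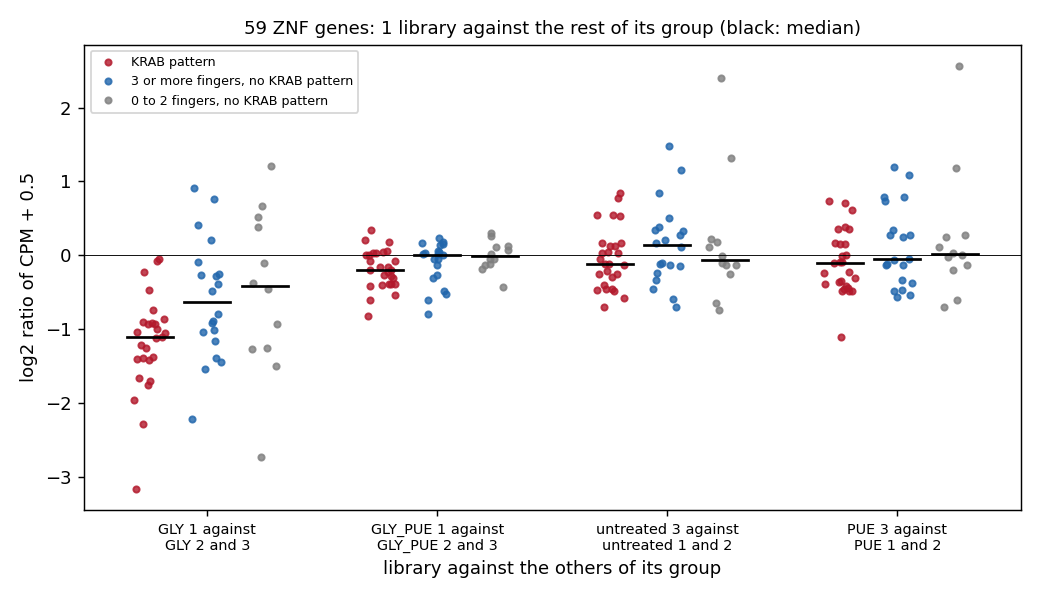
Log2 ratio of CPM + 0.5 for 1 library against the mean of the other 2 of its group, for the 59 ZNF genes by class, with class medians in black. GLY replicate 1 lies below its group for most KRAB genes (median −1.11), GLY_PUE replicate 1 lies near 0, and replicates numbered 3 of untreated and PUE are near 0 apart from a few genes above 1.

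No ZNF gene passed the test with PUE alone. In PUE against untreated 0 of 58 genes passed with edgeR (background 0%), 0 had an unadjusted p under 0.05, and DESeq2 and limma-voom each called 0, with 0 at an unadjusted p under 0.05. The median was 0.02, with values from −0.34 to 0.47. For 41 of the 58 genes the 95% interval of the log2 fold change lay within ±1, so a 2-fold change was outside it. The groups did not overlap in 3 genes, all higher with PUE, against 3.3% of all genes tested. The smallest p belonged to ZNF852, at 1.72, 1.72 and 1.90 CPM in untreated and 2.14, 2.39 and 2.79 CPM in PUE libraries, with a log2 fold change of 0.47 (95% interval −0.13 to 1.07; edgeR unadjusted p = 0.0931, adjusted p = 1.000). Next were ZNF93 (0.36, interval −0.47 to 1.18) and ZNF487 (−0.29, interval −0.97 to 0.39).

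PUE on top of GLY likewise gave no call. In GLY_PUE against GLY 0 of 58 genes passed with edgeR (background 0%) and 0 had an unadjusted p under 0.05, while DESeq2 and limma-voom called 0 and put 2 each under an unadjusted p of 0.05. The median ZNF gene was 0.29 higher with PUE, beside 0.11 over all genes, and for the KRAB genes the median was 0.36. GLY replicate 1 is among the libraries compared, and without it the medians were 0.063 over the ZNF genes and 0.0067 over all genes. The 95% interval lay within ±1 for 17 of 58 genes. ZNF117 had the smallest p, at 0.612, 0.472 and 1.23 CPM in GLY and 1.29, 1.73 and 2.72 CPM in GLY_PUE libraries, with every GLY_PUE library above every GLY library, the 1 ZNF gene whose groups did not overlap here (4.81% of all genes). Its log2 fold change was 1.30 (95% interval −0.085 to 2.69; edgeR adjusted p = 0.959). In untreated and PUE libraries ZNF117 measured 2.52, 0.890 and 3.44 CPM and 1.89, 0.836 and 3.45 CPM, which span the range of the GLY_PUE libraries. It was the 1 ZNF gene marked in this comparison in the authors' deposited table, as higher, and its reads overlap a read-through gene. ZNF493 (0.80, interval −0.096 to 1.70) and ZNF519 (0.55, interval −0.19 to 1.29) followed. These became 0.42 and 0.22 without GLY replicate 1, and that of ZNF117 became 1.17.

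The interaction asks whether the change with GLY differed when PUE was present. It passed for 0 of 58 genes with edgeR (background 0%), and DESeq2 and limma-voom also called 0, with a median of 0.27, beside 0.10 over all genes. The smallest p values were those of ZNF852 (−0.66, interval −1.51 to 0.20), ZNF117 (1.46, interval −0.45 to 3.36) and ZNF519 (0.64, interval −0.40 to 1.68). Without PUE replicate 3 the value of ZNF117 was 2.05, and without GLY replicate 1 that of ZNF519 was 0.31. ZNF852 fell in GLY_PUE against PUE (−0.996, adjusted p = 0.00544) and had −0.34 in GLY against untreated, and the difference between these did not pass. The intervals of most genes are wide enough to hold a 2-fold difference, since 5 of 58 lay within ±1.

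Other C2H2 genes and the silencing machinery that KRAB proteins recruit were read from lists taken from symbols and textbook knowledge. TRIM28 and SETDB1, the core corepressor and its histone methyltransferase, were not analysed here. Of 35 machinery genes the table held 8, and 7 fell in each comparison with GLY, where 64.6% and 57.3% of all genes tested fell, with a median of −1.12 in each. UHRF1, which guides maintenance DNA methylation, measured 103, 110.1 and 152 CPM in untreated and 13.2, 32.9 and 30.3 CPM in GLY libraries, with no overlap (log2 fold change −2.26, SE 0.34, adjusted p = 2.36e-04). ATF7IP, the partner of SETDB1, went from 100.5, 93.9 and 82.9 CPM to 21.3, 38.4 and 38.6 CPM (−1.49, adjusted p = 4.02e-04). The heterochromatin protein CBX1 (−1.01) and the histone methyltransferase EHMT2 (−1.13) also fell relative to totals. Under TMM UHRF1 was −1.15, ATF7IP −0.40, CBX1 0.14 and EHMT2 0.086, and of these UHRF1 alone passed. The BTB zinc finger genes (ZBTB) had 8 of 8 lower with GLY and 6 of 8 in GLY_PUE against PUE (64.6% and 57.3% of all genes; medians −1.63 and −1.38). Of 2 ZFP genes tested, ZFP14 fell (−1.25) and ZFP36 rose (1.38), the latter a CCCH protein that degrades AU-rich mRNAs. Both tested ZKSCAN genes and 1 of 2 ZSCAN genes fell in each comparison. These symbols share the selection of the table, where the median of all genes tested was −1.15 and −1.05.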

How the data were processed

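The authors deposited 1 table of 3699 genes with estimated counts per library (not normalized, 58.2% of them whole), an expression value that behaves as FPKM although its header names no unit, and, per the file headers, log2 ratios, p-values and q-values of the authors' own comparisons. The submitters' processing notes name TopHat and DESeq 1.32.0 with no role, and the sources used here give neither the counting tool nor the genome build. Library totals were recovered from count over FPKM in 625 genes and scaled by 39 single-transcript genes of GENCODE 29 (20.2 M reads in untreated replicate 1, slope interval at 95% from 20.0 to 20.7). Counts rounded to whole numbers were scaled by these totals and fitted over all 12 libraries with edgeR 4.0.16 in R 4.3.3 (filterByExpr, robust quasi-likelihood, Benjamini-Hochberg over 3429 genes), after a check on simulated data. Alternatives were TMM, RLE, DESeq2 1.42.0, limma-voom and limma 3.58.1 on log2(FPKM + 0.1), other filters (none, or 2 CPM in 3 libraries), only the groups compared, a replicate block, a stricter threshold, and libraries left out.

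Intervals (95%) use 8 residual degrees of freedom. Members and lists were chosen with earlier results of these data known. Named genes are the 10 largest falls and rises per GLY comparison (adjusted p under 0.05, average log2 CPM of at least 1, no overlap), the 3 smallest p of the other comparisons, known-role members, the 5 highest by FPKM and 4 machinery genes. Others are marked as picked for position or after their values were seen. Fingers and KRAB patterns were counted in GENCODE 29 coding sequences, since no RefSeq protein was used here. Promoters came from RefSeq. No libraries of a group agreed within sampling noise (chi-square per gene of at least 2.10). Same-numbered libraries deviated together, with a correlation over 0.1 in every pair, between untreated and PUE and between GLY_PUE and each other group, but not between GLY and untreated (0.066 to 0.302) or GLY and PUE (0.037 to 0.200). Libraries numbered 1 and 2 also deviated together across numbers. Untreated 1 with PUE 2 gave 0.498 and untreated 2 with PUE 1 gave 0.533, beside 0.636 and 0.547 for the same numbers. Untreated 3 with PUE 1 gave −0.710. The values set number 3 apart from 1 and 2 and do not show 3 matched sets. This pattern comes from the data, not the labels.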

Additional observations from a re-analysis of the deposited data

How the results depend on the processing

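The number of ZNF genes called in GLY against untreated, GLY_PUE against PUE and GLY_PUE against untreated (50, 34 and 36) was 16, 14 and 15 with TMM and 17, 14 and 15 with RLE within the table, where mostly rises passed. Shares over all genes are not given beside the counts of this paragraph, so changes in them need not be particular to ZNF genes. At an adjusted p under 0.01 it was 25 in GLY against untreated and 20 in GLY_PUE against untreated. Without GLY replicate 1 and all libraries numbered 3, an alternative chosen after seeing the data, it was 56 in GLY_PUE against PUE and 55 in GLY_PUE against untreated; the cause was not tested. Leaving out in turn each library of the groups compared, and GLY replicate 1 in every comparison (added for those with no GLY library), gave 39 to 50, 27 to 53 and 26 to 52 calls. The highest with GLY_PUE, 53 and 52, came without GLY replicate 1, and each library of the groups compared gave at most 32. In PUE against untreated, GLY_PUE against GLY and the interaction each such count was 0. With a replicate block the 3 counts were 54, 41 and 43, and 0 in the others. Among named genes the block added calls for ZNF93 and ZNF611 in GLY against untreated and for ZNF93 and ZNF593 in GLY_PUE against PUE, and changed no other.

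Over 69 values of named genes and 1219 alternative values, 1075 kept their direction and their side of the threshold, 90 no longer passed, 37 newly passed and 17 changed sign, all 17 with TMM or RLE. For GLY against untreated these were CBX1 (0.14 and 0.076, TMM then RLE), EHMT2 (0.086 and 0.0096), ZNF93 (0.40 and 0.35) and, with TMM alone, ZNF219 (0.077). For GLY_PUE against PUE they were ZNF107 (0.20 and 0.18), ZNF148 (0.43 and 0.41), ZNF248 (0.035 and 0.0088), ZNF66 (0.43 and 0.41) and ZNF93 (0.20 and 0.18). Both scalings centre a table selected for change, which moves every value up by about the same amount (RLE by 1.07 and 1.00 in these comparisons). Depth limits genes near the floor of 0.152 CPM, such as ZNF831, ZNF521, ZNF132 and ZNF467.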
